A study of Rattus norvegicus with 49 samples.

Results

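The growth hormone and IGF axis was followed here through 10 genes in the liver and kidney of male rats given propylene glycol phenyl ether, a glycol ether solvent. The members were Igf1, Igfals, Igfbp3, Ghr, Igf1r, Stat5b, Socs2, Igfbp1, Igfbp2 and Serpina6. They were found as the probe sets whose platform annotation gave exactly 1 of these symbols, which left 15 of the 31042 probe sets fitted and 10 of 14217 genes. Igf1 had 3 probe sets, Ghr, Igf1r and Igfbp3 had 2 each, and the other genes had 1 each. No filter on low values was used, so all 15 were tested. In liver at 1000 mg/kg, 6 of the 15 probe sets, from Igf1, Igfals, Igfbp3, Ghr and Serpina6, were lower than in controls after adjustment over all probe sets, of which 0.0741% were called lower. That count ran from 0 to 7 when single arrays were left out. In kidney none was called at any dose.

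Male Harlan Sprague Dawley rats, an outbred stock, were 6 to 8 weeks old when put into groups, and received the compound in corn oil by gavage on 5 consecutive days. The treated groups received 1, 10, 100, 500 or 1000 mg/kg and the controls received the corn oil vehicle, recorded as 0 mg/kg. No tissue was collected at 2000 mg/kg. Liver was measured in 4 rats at each dose with compound and 5 controls, and kidney in 4 rats at each such dose, except 3 at 500 mg/kg, and 5 controls. The treatment text of the labels names another compound, MCHM, where the series title and the sample labels name propylene glycol phenyl ether, and the sample labels are followed. Each of the 49 arrays held RNA of 1 tissue sample, and the labels call the samples biological replicates. Values are log2 expression per probe set after RMA, a summary that normalizes the arrays, so a difference of 1 is a 2-fold difference. The array medians were 5.21 to 5.31 for liver and 5.33 to 5.37 for kidney, and the lowest correlation between 2 arrays of an organ was 0.985 in liver and 0.989 in kidney. The mean levels of the 5 hepatocyte markers in control livers were 9.85 to 14.70, and those of the 5 proximal tubule markers in control kidneys were 10.49 to 13.66. Precision is limited by the number of arrays. These are bulk samples, so fewer cells of a type and less RNA per cell cannot be told apart.

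Growth hormone from the pituitary acts on hepatocytes through its receptor, which activates the kinase JAK2 and the transcription factor STAT5B. STAT5B drives Igf1 and Igfals, and feedback inhibitors of the SOCS family, Socs2 among them, limit the signal. The liver is the main source of circulating IGF1. Most of it travels in a complex with IGFBP3 and the acid-labile subunit, the product of Igfals, while IGFBP1 and IGFBP2 form smaller complexes and IGFBP1 is held down by insulin. Serpina6 encodes corticosteroid-binding globulin, the plasma carrier of glucocorticoids made by hepatocytes.

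Promoter sequences from RefSeq on the rat build GRCr8 were found for 8 members, all but Socs2 and Serpina6. Each holds 250 bases before the annotated start and 50 after it. They were searched on both strands for the STAT5 site TTCNNNGAA, which reads alike on both strands, and for the FoxO core AAACAA or its reverse complement TTGTTT, motifs that were chosen with earlier results known. The 3 windows below are shown because the first belongs to the ligand that was lower in liver, and the other 2 to neighbouring binding-protein genes whose liver values differed in sign. The Igf1 window is chr7:24172282-24172581 on the plus strand, the Igfbp1 window chr14:86261027-86261326 on the plus strand, and the Igfbp3 window chr14:86277895-86278194 on the minus strand. Capitals mark FoxO core matches.
Igf1: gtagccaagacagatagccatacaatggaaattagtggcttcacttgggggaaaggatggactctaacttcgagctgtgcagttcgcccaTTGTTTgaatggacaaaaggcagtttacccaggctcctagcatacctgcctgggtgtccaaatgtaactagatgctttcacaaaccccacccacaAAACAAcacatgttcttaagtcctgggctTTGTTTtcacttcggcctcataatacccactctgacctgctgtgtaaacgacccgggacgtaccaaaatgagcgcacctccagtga
Igfbp1: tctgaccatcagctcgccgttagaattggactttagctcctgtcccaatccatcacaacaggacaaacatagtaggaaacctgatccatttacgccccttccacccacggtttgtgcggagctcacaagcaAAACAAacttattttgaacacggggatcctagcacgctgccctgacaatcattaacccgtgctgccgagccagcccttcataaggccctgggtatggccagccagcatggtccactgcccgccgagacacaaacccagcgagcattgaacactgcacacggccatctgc
Igfbp3: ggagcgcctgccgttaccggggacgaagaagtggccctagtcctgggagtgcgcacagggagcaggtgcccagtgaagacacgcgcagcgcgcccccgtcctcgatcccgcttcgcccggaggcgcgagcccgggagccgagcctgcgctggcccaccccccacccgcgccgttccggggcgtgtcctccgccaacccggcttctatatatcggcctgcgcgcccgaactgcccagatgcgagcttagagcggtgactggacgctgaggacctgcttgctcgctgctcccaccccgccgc

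The Igf1 window held 3 FoxO core matches, beginning 160, 65 and 36 bases before the start. The Igfbp1 window held 1, beginning 119 bases before the start. The Igfbp3 window held none, and neither did the other 5 windows, so 2 of 8 members had a match, against 20.6% of 33469 rat promoters of this length. The STAT5 letters were in 0 of 8 member windows and in 8.87% of all promoters. A match is a description of these letters and no evidence of binding, and sites outside the window were not searched. In the RefSeq annotation Igfbp3 is the next protein-coding gene after Igfbp1 on chromosome 14.

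**Figure D1:**
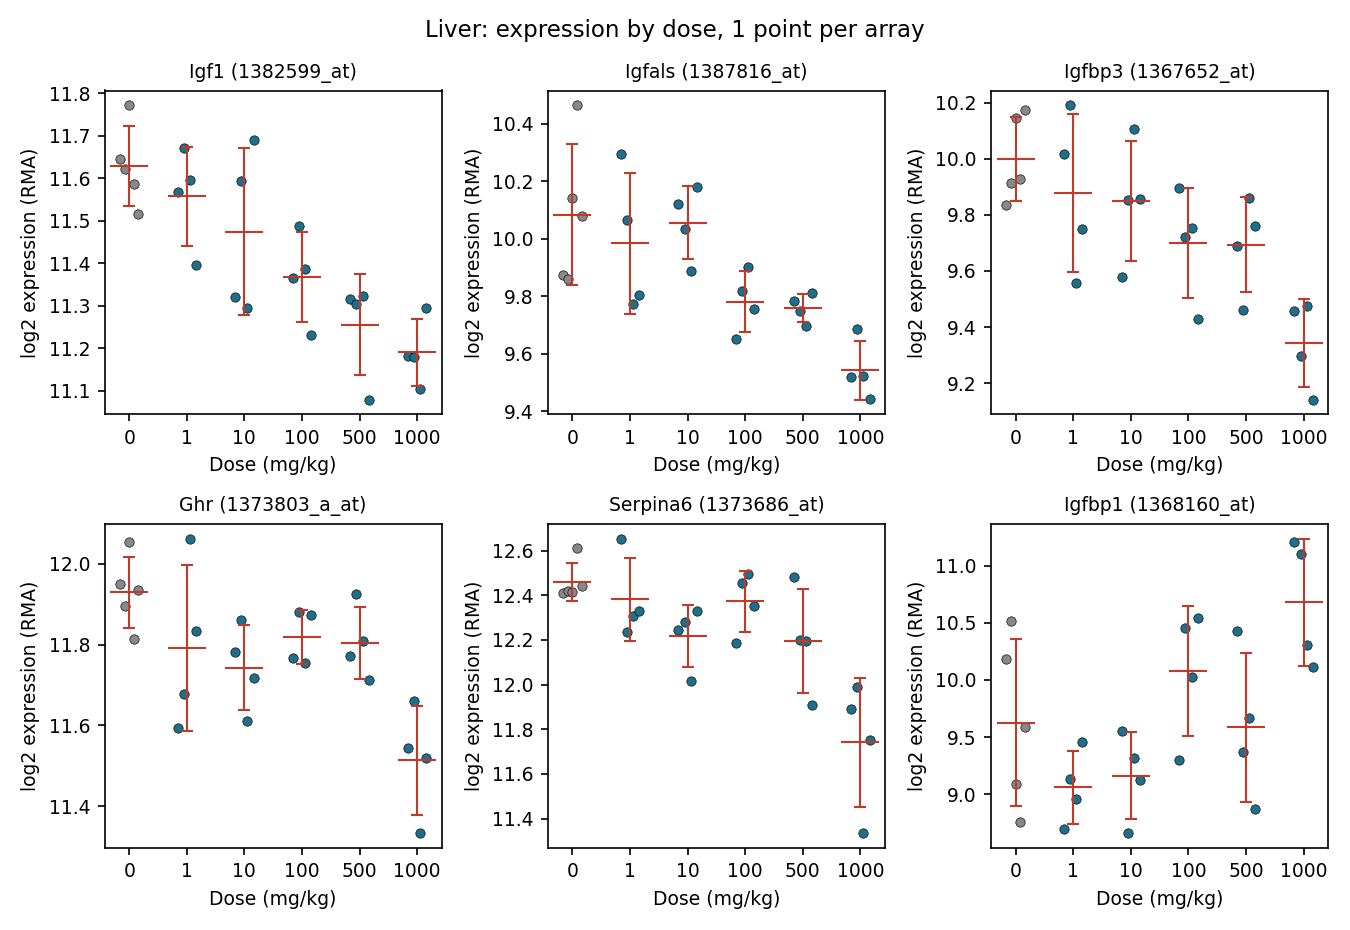
Liver log2 expression (vertical axis, RMA) by dose in mg/kg (horizontal axis) for 1 probe set each of Igf1, Igfals, Igfbp3, Ghr, Serpina6 and Igfbp1. Where a gene had several, the probe set with the lowest p in liver at 1000 mg/kg was drawn. Points are single arrays (grey for 0 mg/kg), and red bars give the mean ± SD of 4 or 5 arrays. At 1000 mg/kg all points of Igf1, Igfals, Igfbp3, Ghr and Serpina6 lie below every control point, while those of Igfbp1 overlap the controls. The Ghr probe set not drawn, 1368924_at, overlaps the controls.

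The question of the liver comparison was whether 5 days of dosing changed the axis in the organ that makes most circulating IGF1. Igf1, the ligand, was lower at 1000 mg/kg. Probe set 1382599_at had 11.18, 11.18, 11.10 and 11.30 in livers at 1000 mg/kg, against 11.65, 11.62, 11.77, 11.59 and 11.52 in controls. The groups did not overlap, and the level was 73.8% of control. The log2 difference was -0.44 ± 0.09 (SE, limma adjusted p = 0.0296).

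The other 2 Igf1 probe sets were read on the same animals, so they are no further replicates. Probe set 1370333_a_at had 12.97, 12.97, 12.93 and 12.97 at 1000 mg/kg, against 13.23, 13.21, 13.24, 13.32 and 13.18 in controls. Probe set 1388469_at had 12.83, 12.68, 12.72 and 12.72 at 1000 mg/kg, against 13.05, 13.06, 13.13, 13.09 and 13.01 in controls. Neither overlapped the controls, and both just missed the threshold. Their log2 differences were -0.28 (limma adjusted p = 0.0526) and -0.33 (limma adjusted p = 0.0524). Probe set 1370333_a_at, which stands for Igf1 where 1 probe set per gene was tested, was called in 5 of 8 alternatives (limma adjusted p from 0.00087 to 0.286) and in 1 of 25 fits that left out 1 array.

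Igf1 also fell with dose. The means of 1382599_at were 11.63, 11.56, 11.47, 11.37, 11.26 and 11.19 at 0, 1, 10, 100, 500 and 1000 mg/kg. Each mean lay below that of the dose before it, although neighbouring doses overlapped, and the same held for the means of the other 2 Igf1 probe sets and of both Igfbp3 probe sets. The 3 probe sets fell with dose rank, by 0.09 per step for 1382599_at (limma adjusted p = 0.00593), 0.05 for 1370333_a_at (limma adjusted p = 0.0174) and 0.07 for 1388469_at (limma adjusted p = 0.0145). At 500 mg/kg all 3, read on the same animals, lay below every control array without passing the test (log2 differences -0.20, -0.37 and -0.27, lowest limma adjusted p = 0.207). The share of all probe sets that lay so was counted only at 1000 mg/kg.

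Igfals, whose product binds IGF1 and IGFBP3 in the circulating complex, fell at 1000 mg/kg. It had 9.52, 9.68, 9.52 and 9.44 at 1000 mg/kg, against 9.87, 9.86, 10.14, 10.47 and 10.08 in controls. All 4 treated arrays were below every control, and the controls spread over more than the treated arrays (SD 0.10 at 1000 mg/kg and 0.25 in controls). The log2 difference was -0.54 ± 0.11 (SE, limma adjusted p = 0.0346), or 68.7% of control. Igfals also fell with dose rank (limma adjusted p = 0.0173). Its 4 arrays at 500 mg/kg, at 9.78, 9.75, 9.70 and 9.81, were likewise below every control, with a log2 difference of -0.32 that did not pass (limma adjusted p = 0.424).

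Igfbp3, the main carrier of IGF1 in blood, fell in both of its probe sets. Probe set 1367652_at had 9.46, 9.30, 9.48 and 9.14 at 1000 mg/kg, against 9.84, 9.91, 10.14, 9.93 and 10.17 in controls. Probe set 1386881_at had 9.09, 8.62, 8.83 and 8.57 at 1000 mg/kg, against 9.20, 9.40, 9.60, 9.46 and 9.46 in controls. Neither probe set overlapped the controls, and they differed by nearly the same amount, at 63.5% and 64.0% of control. The log2 differences were -0.66 ± 0.13 (SE, limma adjusted p = 0.0229) and -0.64 ± 0.14 (SE, limma adjusted p = 0.0346). Both fell with dose rank, by 0.11 per step each (limma adjusted p = 0.0186 and 0.0445). Igfbp3 in liver is made largely by cells other than hepatocytes. None of the 6 endothelial, 6 stellate or 5 Kupffer and macrophage markers measured was called in liver at 1000 mg/kg. The Kupffer and macrophage level of an array, the mean of the markers, ran from 7.89 to 8.27 at 1000 mg/kg, against 8.23 to 8.66 in controls, with all 5 markers negative and a median log2 difference of -0.23. The endothelial median was -0.06 and the stellate median -0.14, and the part of these cells in the Igfbp3 result was not tested.

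Ghr, the growth hormone receptor, gave unlike results in its 2 probe sets. Probe set 1373803_a_at had 11.54, 11.66, 11.33 and 11.52 at 1000 mg/kg, against 11.95, 11.90, 12.05, 11.81 and 11.94 in controls. It fell by 0.42 on the log2 scale (limma adjusted p = 0.0393), to 74.9% of control, and the groups did not overlap. Probe set 1368924_at had 9.06, 8.89, 8.76 and 9.08 at 1000 mg/kg, against 9.13, 8.84, 9.32, 9.08 and 9.05 in controls. These overlapped, with a log2 difference of -0.14 and a 95% interval of -0.35 to 0.07 (limma adjusted p = 0.740). The transcripts that each probe set reads were not looked up here. The difference in 1373803_a_at was seen at the top dose: its means were 11.93, 11.79, 11.74, 11.82, 11.80 and 11.51 at 0, 1, 10, 100, 500 and 1000 mg/kg, and its trend did not pass (limma adjusted p = 0.182).

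Igf1r, the receptor through which IGF1 signals in other tissues, had low values in liver, near the array medians or below. Probe set 1368123_at had 5.27, 6.21, 5.30 and 5.63 at 1000 mg/kg, against 5.58, 5.47, 5.66, 5.62 and 5.76 in controls. One treated array was above all controls and 2 were below them. The log2 difference was -0.02 with a 95% interval of -0.38 to 0.35 (limma adjusted p = 0.992), and that of 1392492_at was -0.04 (limma adjusted p = 0.973). At 100 mg/kg 1368123_at had 5.19, 5.28, 5.03 and 5.18, below every control, and its log2 difference of -0.45 did not pass (limma adjusted p = 0.549).

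Neither signalling member was called. Stat5b, the transcription factor below the receptor, had 6.21, 6.02, 6.29 and 6.35 at 1000 mg/kg, against 6.00, 5.90, 6.22, 6.30 and 6.09 in controls, a log2 difference of 0.11 (limma adjusted p = 0.824). Its highest mean was at 10 mg/kg, where 6.31, 6.41, 6.68 and 6.55 lay just above the controls (log2 difference 0.38, limma adjusted p = 0.460). Socs2, a feedback inhibitor whose RNA follows growth hormone pulses, had 5.78, 6.57, 6.50 and 7.28 at 1000 mg/kg, against 5.55, 7.39, 7.49, 7.34 and 6.45 in controls. The spread within each group was wide, and the log2 difference of -0.31 had a 95% interval of -1.16 to 0.53 (limma adjusted p = 0.880), which includes a halving.

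The other binding proteins, Igfbp1 and Igfbp2, had positive differences at 1000 mg/kg that did not pass. Igfbp1, which is held down by insulin and raised in fasting, had 11.21, 11.10, 10.30 and 10.11 at 1000 mg/kg, against 10.18, 10.51, 9.09, 8.76 and 9.58 in controls. Of the 4 treated arrays 2 were above every control and 2 were inside the control range. The mean difference of 1.05 on the log2 scale, 2.08-fold, had a 95% interval of 0.35 to 1.76 and did not pass (limma adjusted p = 0.252). The control arrays spanned 8.76 to 10.51. At 1, 10, 100 and 500 mg/kg the Igfbp1 log2 differences were -0.56, -0.46, 0.45 and -0.04, so the sign was not the same at each dose. Igfbp2 had 7.77, 8.02, 7.92 and 7.77 at 1000 mg/kg, against 7.36, 8.49, 7.30, 7.45 and 8.04 in controls. The treated values lay inside the control range (log2 difference 0.14, limma adjusted p = 0.909).

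Serpina6, the corticosteroid carrier, had the lowest adjusted p of the members. It had 11.89, 11.99, 11.34 and 11.75 at 1000 mg/kg, against 12.41, 12.42, 12.42, 12.61 and 12.44 in controls. The highest array at 1000 mg/kg, 11.99, lay below the lowest control, 12.41. It fell by 0.72 on the log2 scale, with an SE of 0.12 and a 95% interval of -0.97 to -0.46 (limma adjusted p = 0.00709), to 60.8% of control. The means at 0, 1, 10, 100, 500 and 1000 mg/kg were 12.46, 12.38, 12.22, 12.37, 12.20 and 11.74. The trend passed (limma adjusted p = 0.0424), with most of the difference at the top dose.

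**Figure D2:**
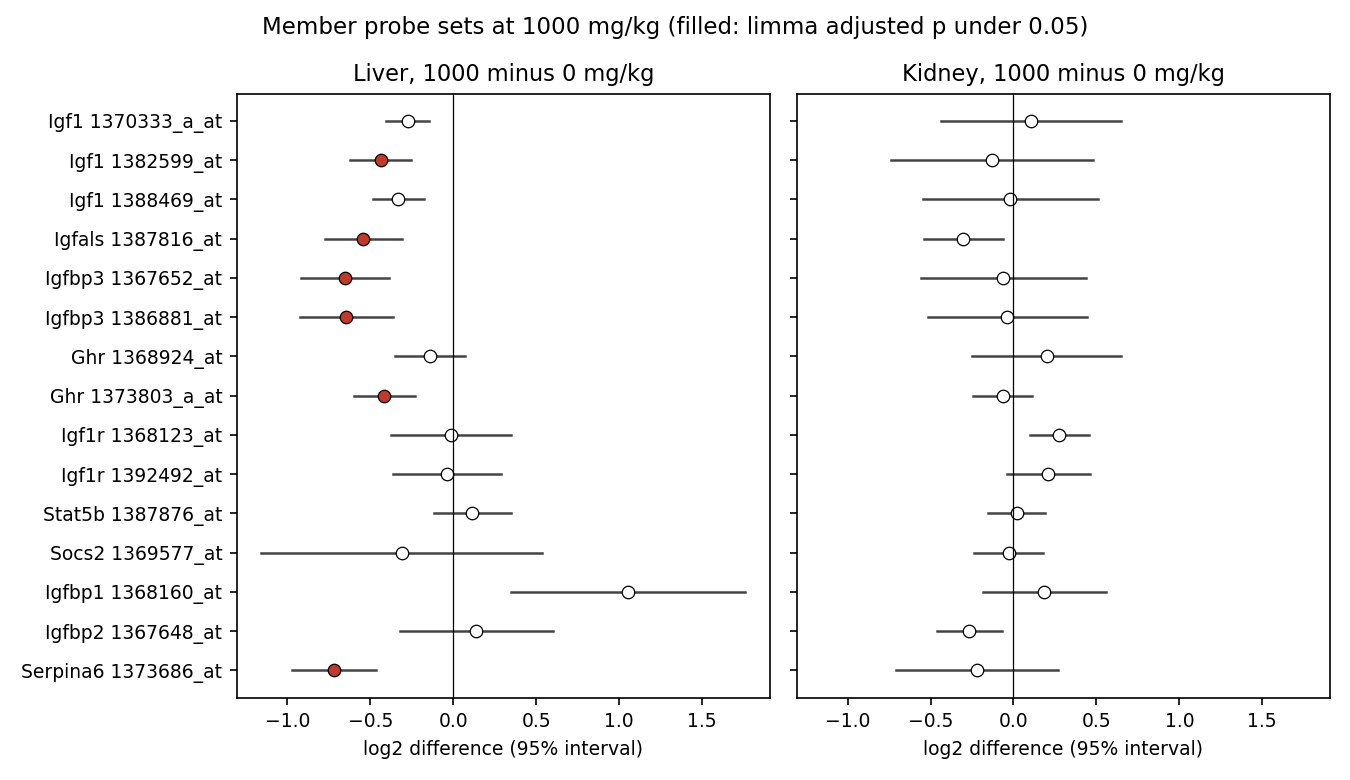
Difference in mean log2 expression, 1000 minus 0 mg/kg (horizontal axis), with 95% intervals, for the 15 probe sets in liver (left) and kidney (right). Filled points had a limma adjusted p under 0.05, which 6 in liver and 0 in kidney did. The widest liver interval is that of Socs2, from -1.16 to 0.53.

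Counted together, 6 of 15 member probe sets (5 of 10 genes) were lower in liver at 1000 mg/kg and 0 were higher. Over all probe sets 0.0741% (23 of 31042) were called lower and 0.226% higher, 0.3% in all. All 4 arrays at 1000 mg/kg lay below every control for 8 member probe sets (5 genes), against 1.43% of all probe sets, and above every control for 0 member probe sets, against 2.33%. An unadjusted p under 0.05 (limma) was found for 9 of the 15 member probe sets, against 9.53%. The median log2 difference was -0.31 over the 15 member probe sets and about 0 over all probe sets, and 12 of the 15 were negative. The trend with dose rank fell for 7 member probe sets (4 genes: Igf1, Igfals, Igfbp3 and Serpina6), against 0.0644% of all probe sets falling and 0.232% either way. The members had been chosen with earlier results of these arrays known, so these counts describe them and are not independent evidence. The count of 6 depended on single arrays. Leaving out replicate 3 of the 1000 mg/kg group gave 0. That array had the lowest Serpina6, Ghr (1373803_a_at) and Igf1 (1382599_at) values of its group, but the highest Igfbp3 (1367652_at) value, 9.48. With it left out, the difference of that Igfbp3 probe set was larger, at -0.70, and still was not called. Over all probe sets 93 were called in the main fit and 19 in the fit lacking this array. Dropping replicate 4 of this dose left 2 member calls, and dropping either replicate 1 or replicate 2 left 3. The member count was 1, 2, 3 and 3 without control replicate 3, 5, 4 and 2. A fit of the 1000 and 0 mg/kg arrays alone called 0, with Igfbp3 (1367652_at) at a limma adjusted p of 0.0544 and Serpina6 at 0.0727. The differences of these probe sets remained negative in each of these fits. The trend count of 7 was 1 without 1000 mg/kg replicate 3 or 4, and 4 without replicate 2 of that dose or control replicate 4.

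Below 1000 mg/kg no member was called in liver with limma. The lowest adjusted p was 0.511 at 1 mg/kg, 0.460 at 10, 0.525 at 100 and 0.207 at 500 mg/kg, where 0%, 0.00322%, 0% and 0.0129% of all probe sets were called. Unadjusted p-values under 0.05 were found for 2, 2, 6 and 6 of the 15 member probe sets, against 7.82%, 7.58%, 7.53% and 8.29% of all probe sets. Those at 500 mg/kg were the 3 Igf1 probe sets, Igfals, Igfbp3 (1367652_at) and Serpina6, each negative. Negative differences numbered 13, 13, 12 and 14 of 15 at these doses. The median log2 differences over all probe sets there were 0.00214, 0.00452, -0.000376 and 0.00269. Genes with several probe sets count more than once, and the share of negative differences over all probe sets was not counted. All doses share the same control arrays, so these counts are not independent of each other.

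**Figure D3:**
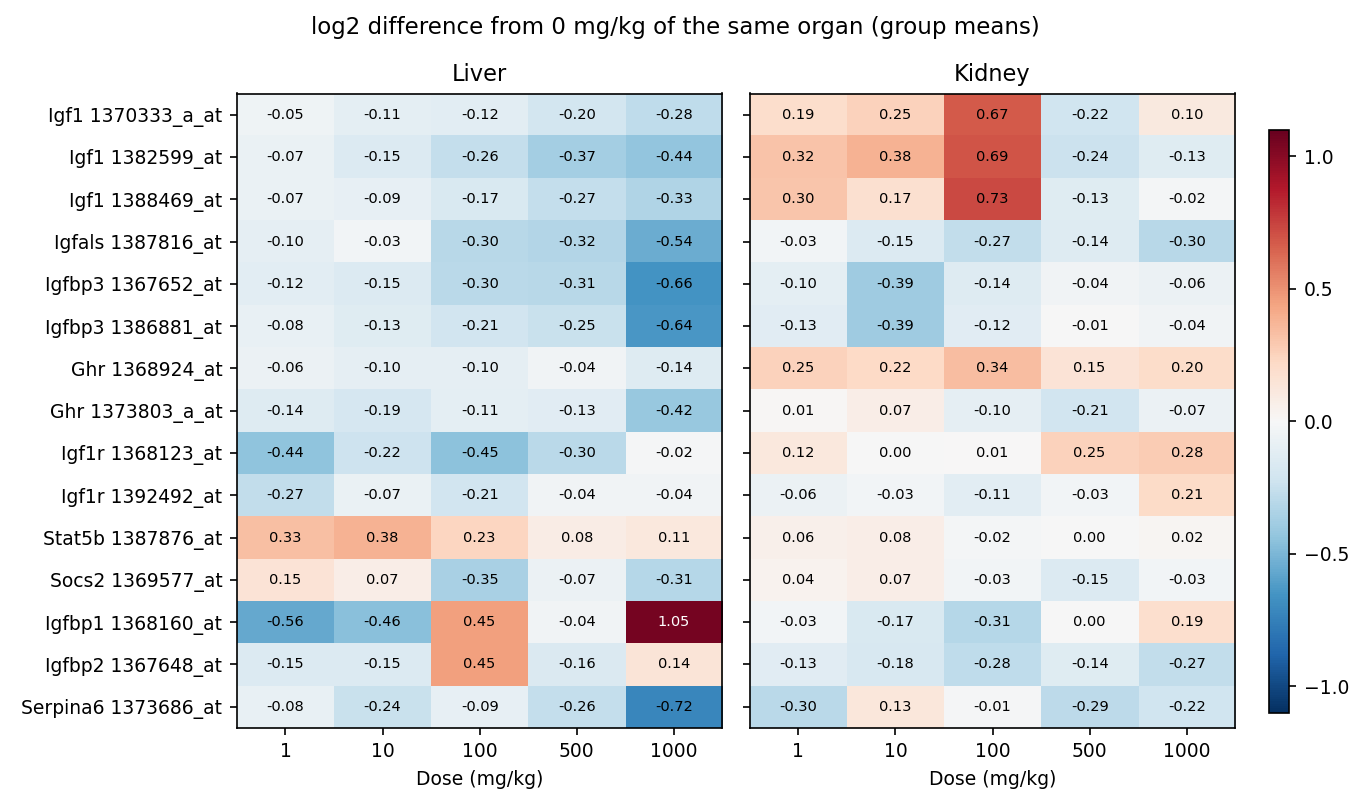
Difference in mean log2 expression from 0 mg/kg of the same organ (colour and printed value) for each member probe set (rows) at 1, 10, 100, 500 and 1000 mg/kg (columns), in liver (left) and kidney (right). Liver Igf1 goes from -0.07 at 1 mg/kg to -0.44 at 1000 mg/kg for 1382599_at, and the 3 kidney Igf1 values at 100 mg/kg are 0.67, 0.69 and 0.73.

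In kidney the members gave no call. At 1000 mg/kg 0 of 15 passed (limma), where 0.615% of all probe sets did, 0.419% lower and 0.197% higher. For trend 0 of 15 passed, where 0.58% of all probe sets did and 0.448% fell. No member had all 4 arrays at 1000 mg/kg below every control, as 2.04% of all probe sets had, or above every control, as 1.33% had. Unadjusted p-values under 0.05 numbered 3 of 15 at 1000 mg/kg, against 10.2% of all probe sets, and 0, 0, 5 and 2 at 1, 10, 100 and 500 mg/kg, against 2.99%, 5.99%, 6.35% and 4.61%. At those 4 doses 0%, 0%, 0% and 0.00322% of all probe sets were called. Member differences at 1000 mg/kg ran from -0.30 to 0.28 with a median of -0.03.

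Igf1r had the lowest adjusted p in kidney at 1000 mg/kg. Probe set 1368123_at had 7.62, 7.41, 7.78 and 7.55 at 1000 mg/kg, against 7.27, 7.32, 7.26, 7.28 and 7.45 in controls. Of the 4 treated arrays 3 were above every control, and the log2 difference was 0.28 with a 95% interval of 0.10 to 0.46 (limma adjusted p = 0.198). At 500 mg/kg it had 7.52, 7.42 and 7.75 (log2 difference 0.25, limma adjusted p = 0.963). The second Igf1r probe set had 8.25, 8.25, 8.78 and 8.32 at 1000 mg/kg, against 8.13, 8.23, 8.29, 8.21 and 8.10 in controls, a log2 difference of 0.21 (limma adjusted p = 0.600).

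Igfals and Igfbp2 were the other kidney members with an unadjusted p under 0.05 at 1000 mg/kg. Igfals had 6.69, 6.80, 6.64 and 6.95 at 1000 mg/kg, against 7.05, 7.02, 7.24, 7.15 and 6.92 in controls (log2 difference -0.30, limma adjusted p = 0.328). Igfbp2 had 7.92, 8.14, 7.95 and 8.22 at 1000 mg/kg, against 8.41, 8.40, 8.42, 8.27 and 8.11 in controls (log2 difference -0.27, limma adjusted p = 0.289). In both genes treated and control values overlapped.

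Kidney Igf1, which acts mostly near where it is made, had no difference at 1000 mg/kg that its spread could show. Probe set 1370333_a_at had 8.46, 8.47, 8.44 and 8.42 at 1000 mg/kg, against 8.81, 8.31, 8.14, 8.51 and 7.95 in controls, a log2 difference of 0.10 with a 95% interval of -0.44 to 0.65. Its values at 100 mg/kg were 8.38, 9.25, 9.65 and 8.78, of which 2 were above every control. The 3 probe sets differed there by 0.67, 0.69 and 0.73 on the log2 scale and did not pass (limma adjusted p = 0.761, 0.769 and 0.761). Markers of adipocytes, which kidney tissue taken with some surrounding fat can hold, varied among these 4 arrays. Their mean log2 level against the control mean was 0.98, -0.29, -0.02 and -0.11 in the same order as the Igf1 values. Here the array with the most adipocyte signal had the lowest Igf1. At 1 and 500 mg/kg such an array had the highest Igf1 (1370333_a_at) of its group, and at 0, 10 and 1000 mg/kg it did not. The part of fat in the Igf1 values was not tested. The 7 kidney arrays highest in these markers include that 100 mg/kg array and replicates 1, 3 and 4 of the 4 at 10 mg/kg. A fit without these 7 cannot decide the part of fat. No kidney member was called with them, and 10 mg/kg loses most of its arrays.

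Kidney Igfbp3 spread widely within groups. Probe set 1367652_at had 9.97, 10.19, 10.00 and 10.52 at 1000 mg/kg, against 9.70, 10.26, 10.94, 10.35 and 9.91 in controls. The log2 difference was -0.06 with a 95% interval of -0.56 to 0.44, and that of 1386881_at was -0.04. Ghr in kidney differed by 0.20 and -0.07 at 1000 mg/kg in its 2 probe sets, Igfbp1 by 0.19 and Stat5b by 0.02. Socs2 and Serpina6 had kidney means of 3.86 and 3.12 at 1000 mg/kg, against 3.89 and 3.34 in controls, below the array medians, so little can be read from them there.

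**Figure D4:**
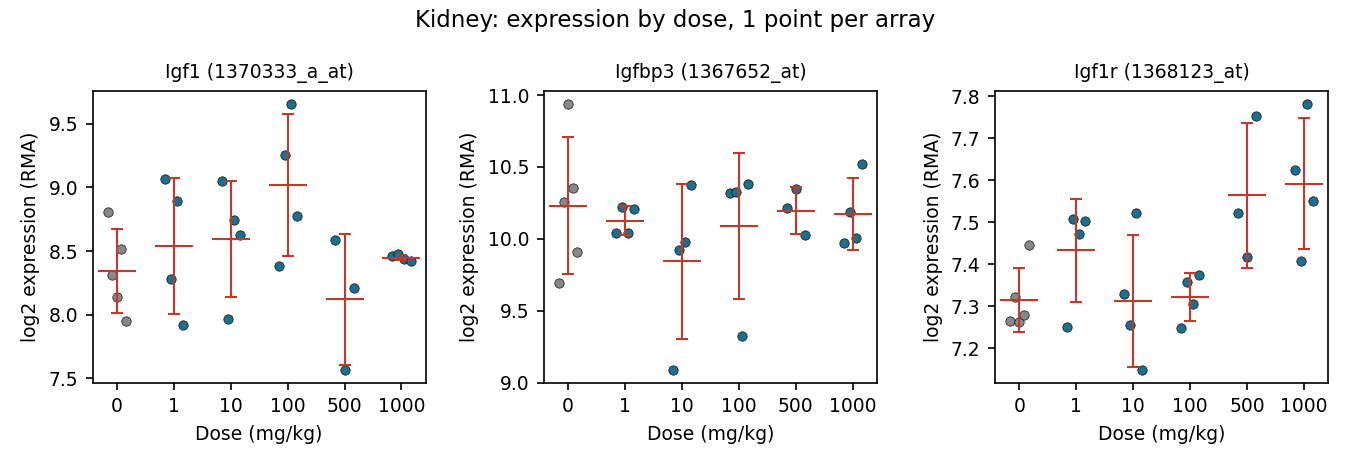
Kidney log2 expression (vertical axis, RMA) by dose in mg/kg (horizontal axis) for 1 probe set each of Igf1, Igfbp3 and Igf1r. Points are single arrays (grey for 0 mg/kg), and red bars give the mean ± SD of 3 to 5 arrays. Igf1 is highest at 100 mg/kg, where its arrays span 8.38 to 9.65 and overlap the controls.

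Whether liver and kidney responded differently was tested as the difference between their changes at 1000 mg/kg, over all 49 arrays. With limma 0 of 15 member probe sets passed, where 0.18% of all probe sets did. Ghr (1373803_a_at) changed by -0.42 in liver and -0.07 in kidney, and the difference of -0.35 had a 95% interval of -0.60 to -0.11 (limma adjusted p = 0.323). For Igfbp3 (1386881_at) it was -0.61 (limma adjusted p = 0.504) and for Igfbp1 0.87 (limma adjusted p = 0.519). For Serpina6 it was -0.50, with a 95% interval of -1.05 to 0.05 (limma adjusted p = 0.593). A call in liver and none in kidney therefore does not show that the organs differ. The labels used here do not tie liver and kidney arrays to the same animals.

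Related genes outside the 10 members were not called in either organ at 1000 mg/kg with limma. Over all probe sets 0.3% were called in liver and 0.615% in kidney, so 0 calls in lists of this size say little. Of the GH signalling list, 13 genes that are no members (23 probe sets) gave 0 calls in liver. Their median log2 difference was 0.01, with a range of -0.34 to 0.81. The genes named are those with the smallest p. Socs3, a further feedback inhibitor, had -0.21 (limma adjusted p = 0.627), Stat5a 0.19 (0.641), Sh2b1, an adaptor of JAK2, 0.13 (0.634) and Sh2b2 -0.25 (0.641). Of the IGF system list 12 such genes (25 probe sets) gave 0 calls, with a median of -0.01. Igfbp7 had 10.31 ± 0.13 at 1000 mg/kg (SD, n = 4), against 10.62 ± 0.09 in controls (SD, n = 5), a log2 difference of -0.31 (limma adjusted p = 0.147). Igf2, the fetal ligand, had -0.22 (0.464), Irs2, an adaptor of the insulin and IGF1 receptors, 0.47 (0.623) and Stc1 0.20 (0.795). For genes with several probe sets the value is that of the probe set with the smallest p. Other liver probe sets differed in sign for Stc1 (-0.17), Igf2 (0.04) and, in the lists below, Cux2 (0.08) and Fgb (0.02).

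Sex-dependent liver genes, which in the rat follow the pattern of growth hormone pulses, also gave 0 calls. Of 11 male-biased genes measured (17 probe sets) Cyp2c11, the main male-specific P450 of rat liver, had 13.18 ± 0.36 at 1000 mg/kg (SD, n = 4), against 13.49 ± 0.09 in controls (SD, n = 5). Its log2 difference was -0.31 (limma adjusted p = 0.342). Mup5 had -0.22 (0.558), Cspg5 -0.24 (0.569) and Cyp2a2 0.15 (0.639). Of 10 female-biased genes (15 probe sets) Hao2, a peroxisomal hydroxyacid oxidase, had -0.52 (0.142), Cux2 -0.29 (0.521), Onecut1 -1.01 (0.596) and Cyp2a1 0.30 (0.607). The list medians were -0.07 and -0.09, with ranges of -0.44 to 0.29 and -1.02 to 0.81.

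Fasting and corticosteroid genes were listed because of Igfbp1 and Serpina6. Of 10 fasting and FoxO1 genes other than Igfbp1 (19 probe sets) 0 were called in liver. Pck1, which encodes a key gluconeogenic enzyme, had -0.41 (limma adjusted p = 0.392), Angptl4 -0.63 (0.489), Cpt1a -0.40 (0.579) and Irs2 the value above. Among these only Irs2 shared the sign of Igfbp1. The 19 probe sets had a median log2 difference of -0.02 and ran from -0.63 to 0.69, so the list had no common sign. The part of fasting in the Igfbp1 values was not tested. Of 11 corticosteroid genes other than Serpina6 (14 probe sets) 0 were called. Akr1d1, a steroid reductase, had 0.43 (0.137) in one probe set and 0.04 in the other, and Fkbp5, a glucocorticoid-induced gene, had 0.37 (0.471). Of 12 secreted hepatocyte proteins (15 probe sets) 0 were called, with a median of -0.04. Apoa1 had -0.28 (0.142), Fgb -0.10 (0.616), Serpina1, a relative of Serpina6, -0.10 (0.629) and Ahsg -0.08 (0.737). In the hepatocyte marker list 4 of 5 were negative, with a median of -0.05 and a mean level per array of 12.85 to 13.10 at 1000 mg/kg, against 12.91 to 13.27 in controls.

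In kidney the same 7 lists gave 0 calls outside the members. The genes nearest to a call were Pck1, at 0.52 on the log2 scale (limma adjusted p = 0.0610), Nat8, at 0.49 (limma adjusted p = 0.0850), and Igfbp5, at -0.43 in its brightest probe set (limma adjusted p = 0.0968). Igfbp7 had -0.22 (limma adjusted p = 0.182) and Fkbp5 0.78 (limma adjusted p = 0.176).

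The members were also compared within doses, through each array's deviation from its dose mean, over 45 gene pairs in each organ with the probe set of highest mean for each gene. With 100000 permutations within doses, no pair of the 90 passed by Pearson's r after Benjamini-Hochberg adjustment. The lowest adjusted p was 0.0614, shared by 5 pairs, and by Spearman's rho 3 pairs passed. In liver Igf1 and Serpina6 correlated at r = 0.53 (permutation p = 0.00257, adjusted 0.0614) and rho = 0.62 (permutation p = 0.00159, adjusted 0.0477) over 25 arrays, and r was 0.51 without the 2 arrays farthest from the median of Igf1. In kidney Igfals and Igfbp3 correlated at r = 0.72 (permutation p = 0.00074, adjusted 0.0614) and rho = 0.70 (permutation p = 0.00063, adjusted 0.0477) over 24 arrays, and r was 0.74 without the 2 farthest arrays. There Igfals and Igfbp2 correlated at r = 0.63 (permutation p = 0.00182, adjusted 0.0614) and rho = 0.67 (permutation p = 0.00124, adjusted 0.0477), with r = 0.69 without the 2 farthest arrays. In liver Igfals and Igfbp3 had r = 0.20 (permutation p = 0.437) and rho = 0.21 (permutation p = 0.391), and r = 0.24 without the 2 farthest arrays.

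As a description, the genes most like each of 4 members in these liver deviations were taken over 25 arrays, which share their arrays and normalization. For Igf1 they were Tubb2b (r = 0.90), Lamtor4 (r = 0.78) and Tnfrsf9 (r = 0.76). For Ghr they were Chac2 (r = 0.73), Pwwp2b (r = 0.72) and Etv5 (r = 0.71). For Igfbp3 they were Cnrip1 (r = 0.69), Fam25a (r = 0.69) and Adh1c (r = 0.68), and for Serpina6 Serpinb9b (r = 0.77), Chic1 (r = 0.76) and Prss32 (r = 0.75). Several of these genes were dim. The mean liver levels of Tubb2b (5.00), Pwwp2b (5.15), Etv5 (5.00), Cnrip1 (5.27), Fam25a (4.85) and Prss32 (5.32) were near the array medians or below. Their values may hold mostly background. The r values given are the highest among genes with a symbol, with the probe set of highest mean for each gene. Symbols beginning with LOC, RGD, MGC or AABR were left out. No other member was among the 3 genes most like any of the 4.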

How the data were processed

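Per the labels' protocols, total RNA of each tissue sample was put on its own Affymetrix Rat Genome 230 2.0 array. The authors deposited log2 values per probe set, made with RMA according to the submitters' processing notes. Its version, and whether it was run on both organs at once, are not given in the sources used here, so levels were compared only within an organ. Because RMA gives all arrays 1 distribution, a shift common to most genes would not be seen. Dim probe sets were kept without detection calls and may hold mostly background. Of 31099 probe sets 57 controls were left out, 20826 had 1 symbol, 436 several and 9780 none. Symbols were looked up by Entrez identifier for 20758 and by accession for 2, and 66 kept the given symbol.

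Groups come from the sample titles. For each organ limma 3.58.1 in R 4.3.3 was fitted with 1 mean per dose group and empirical Bayes moderation, dose rank 0 to 5 was fitted as a separate trend model, and the organ difference was fitted over all 49 arrays. Adjusted p-values are Benjamini-Hochberg over 31042 probe sets, called under 0.05, and intervals are at 95%. A gene in correlations and in the fit with 1 probe set per gene is its probe set of highest mean. The members, lists, motifs and tests were chosen with earlier results of these data known. Named genes were all members, and from each list up to 4 genes with the smallest p at 1000 mg/kg and any called gene; Akr1d1's second probe set, Fkbp5, Igfbp5 and Igfbp7 in kidney follow the same rule per organ. The alternatives were 1 probe set per gene, brighter probe sets only, quantile normalization, median centring, robust moderation with a variance trend, array weights, a replicate block, the 2 groups alone, each array left out, and kidney without 7 arrays whose adipocyte marker mean was over 0.5 above the control mean. On simulated data of 31042 probe sets the liver fit at 1000 mg/kg called 66% of 1.5-fold and 96% of 2-fold changes, with noise independent between probe sets. Promoters are from RefSeq (GRCr8).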

Additional observations from a re-analysis of the deposited data

Results flagged for a closer look

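Among 165 groups of 4 or 5 arrays, 9 held an array far from the others of its group by Dixon's criterion, and chance gives about 5% of groups. In liver Igf1 (1370333_a_at) was 12.93 in 1000 mg/kg replicate 3, a gap of little size since the other arrays all read 12.97. Liver Igf1 (1382599_at) was 11.08 in 500 mg/kg replicate 4, against 11.30 to 11.32 in the other arrays, and Igf1 (1388469_at) was 12.79 in 1 mg/kg replicate 4, against 13.05 to 13.08. Liver Serpina6 was 12.61 in control replicate 4, against 12.41 to 12.44 in the other controls. Liver Socs2 was 7.77 in 1 mg/kg replicate 2, against 6.71 to 6.78. In kidney Igfbp3 (1367652_at) was 9.33 in 100 mg/kg replicate 3, against 10.32 to 10.38, and the same array had the highest Igf1 of its group. Kidney Igf1r was 8.78 (1392492_at) in 1000 mg/kg replicate 3, against 8.25 to 8.32, and 7.25 (1368123_at) in 1 mg/kg replicate 1, against 7.47 to 7.51. Kidney Igfbp1 was 8.64 in 1000 mg/kg replicate 2, against 8.96 to 8.99.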

How the results depend on the processing

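The count of 6 member probe sets lower in liver at 1000 mg/kg was 5 to 8 with 1 probe set per gene, brighter probe sets only, quantile normalization, median centring, a variance trend or array weights, 1 (Serpina6) with a replicate block, 0 with the 2 groups alone, and 0 to 7 with single arrays left out. The trend count of 7 was 4 with 1 probe set per gene, where fewer probe sets were tested, 3 with a replicate block, all of Igf1, and 1 to 7 with single arrays left out. Replicate numbers showed no clear pairing of the arrays. Same-numbered arrays deviated together at a mean r of -0.01 in liver and 0.05 in kidney. For arrays of other numbers the mean r was 0.00322 and -0.0154. In liver 6 of 25 and in kidney 6 of 24 arrays correlated best with their own number. The difference in kidney was not tested. Below 1000 mg/kg in liver the count was 1 with a variance trend (Igf1 1382599_at at 500 mg/kg, adjusted p = 0.0494) and 0 otherwise. Apart from runs without kidney arrays high in adipocyte markers, counts of 0 in kidney and for the organ difference stayed 0 under each alternative. Those runs removed replicates 1, 3 and 4 of the 4 kidney arrays at 10 mg/kg, so their counts are not given here. Serpina6 was called in 24 of 25 fits that left out 1 array and in 7 of 8 other alternatives, with adjusted p from 0.00318 to 0.0727. Ghr (1373803_a_at) was called in 14 of 25 and 5 of 8.

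Over all probe sets in liver 93 were called at 1000 mg/kg, 70 higher and 23 lower, against 66 higher and 44 lower with quantile normalization and 72 and 18 with median centring. The total was 149 with 1 probe set per gene, 244 with brighter probe sets only, 205 with a variance trend, 163 with array weights, 66 with a replicate block, 29 in the fit of 2 groups and 19 without replicate 3 of 1000 mg/kg. In kidney it was 191, against 290 with a replicate block, 83 with the 2 groups alone and 84 without the arrays high in adipocyte markers. Values near 0 that were never called changed sign. Liver Igf1r (1368123_at) was 0.0185 with a replicate block. Kidney Igf1 (1388469_at) was 0.00536 with quantile normalization and 0.00368 without the arrays high in adipocyte markers. Kidney Igfbp3 was 0.0343 (1367652_at) and 0.0414 (1386881_at) with array weights, and 0.00288 (1386881_at) without those arrays. With single arrays left out, liver Igf1r ran from -0.22 to 0.0951 (1368123_at) and from -0.13 to 0.0461 (1392492_at). Kidney Igf1 (1388469_at) ran from -0.13 to 0.0640, Igfbp3 from -0.19 to 0.12 (1367652_at) and from -0.18 to 0.11 (1386881_at), Socs2 from -0.0971 to 0.0349 and Stat5b from -0.0404 to 0.0697. The cause of these shifts was not tested. With 3 to 5 arrays a group, real differences can be missed: on simulated liver data 66% of 1.5-fold and 96% of 2-fold changes were called.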
